A study of Homo sapiens with 27 samples.

Results

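Marks from a sequencing method for O6-methylguanine were followed in the gene bodies of 6 genes of DNA mismatch repair. These are MSH3, MSH6, MLH3, PMS1, PMS2 and EXO1, out of 20037 protein-coding genes in the RefSeq table of GRCh38. A mark belonged to a gene when its position lay between the gene's first and last base, its base was G and its score was 30 or more. The score ran from 0 to 42 and is the deposited value of each mark. Loss of mismatch repair by mutation is a known route to resistance against temozolomide (TMZ).

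The marks come from O6-MeG-seq, which enriches sheared DNA for the lesion by immunoprecipitation and reads its position from the stop of a high-fidelity polymerase. LN-229 is an established human glioblastoma line, and the cells were either transfected with MGMT or, as the transfection control, named WT. Both received 1 mM TMZ or, as solvent, 1% DMSO. Cells had 1 exposure or 3, spaced by 4 h, and gave their DNA 24 h after the first. This gives 8 cell groups of 3 libraries each, 24 in all. Naked DNA, purified before it met 1 mM TMZ outside cells, makes up the other 3 libraries, and these came from non-transfected WT cells (replicate 1), WT cells (replicate 2) and MGMT-transfected cells (replicate 3). The MGMT-transfected line was a single line, so the genotype and any other difference between both lines cannot be told apart. The text of the series calls the replicates biological but does not say whether they were separate cultures. The p-values measure the spread between these libraries and take them as independent unless a block is named.

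TMZ methylates DNA bases, and the methyl group on O6 of guanine makes that base pair with thymine at the next replication. MGMT removes the methyl group directly. Where it is absent, mismatch repair finds the mispair, cuts out the newly made strand and leaves the methylated G in place, and repeated rounds of this process are what makes the lesion toxic in a glioblastoma cell. MSH6 and MSH3 are alternative partners in the MutS dimers that find mispairs and small loops. PMS2, MLH3 and PMS1 are alternative partners in the MutL dimers that act next, PMS2 as the main endonuclease, and EXO1 is the exonuclease that removes the strand with the error.

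The genes differed in length, and so in the number of marks behind each value. MSH3 (chr5:80654652-80876815, plus strand) held 3876 G sites over all 27 libraries, from 11 to 587 per library. PMS1 (chr2:189784450-189877629, plus strand) held 1819, from 4 to 263, and EXO1 (chr1:241847986-241889939, plus strand) held 1107, from 2 to 147. MLH3 (chr14:75013775-75051467, minus strand), MSH6 (chr2:47783145-47810101, plus strand) and PMS2 (chr7:5970925-6009106, minus strand) held 820, 779 and 632. FBXO11, another protein-coding gene, covered 11.8% of MSH6 at its end. All 6 passed the filter of at least 10 G sites in at least 3 libraries, as did 17702 genes in all, and all 6 entered every test. Libraries differed in depth, with 170292 to 826043 G sites of that score under solvent, 742232 to 5631721 under TMZ in cells and 5268891 to 9080016 in naked DNA. Marked positions were also shared between libraries: 49.3% and 50.8% of the G positions in the replicate 1 solvent libraries with 1 exposure were marked in a further library too, against 8.70% to 30.2% in the other 25. At bases other than G, both shared many positions with TMZ-treated DNA of replicate 1. The MGMT one shared 104055 with MGMT TMZ and 67859 with naked DNA, 289 and 62.6 times the rate of the median pair. The WT one shared 40929 with WT TMZ and 62213 with naked DNA, 152 and 65.2 times that rate. MGMT TMZ of replicate 1 with 1 exposure shared 41588 with naked DNA of replicate 1, 15.6 times that rate. The effect of this on comparisons with naked DNA was not tested. Among 3 exposures, WT solvent of replicate 1 shared 21780 with WT TMZ and 22490 with MGMT TMZ of replicate 1, 17.4 and 17.0 times that rate. By the positions they share, most libraries fall into 3 sets that hold both treatments: all libraries of replicate 1 with 1 exposure and naked DNA of replicate 1, those of replicate 2 with 1 exposure and replicate 1 with 3 exposures, and those of replicate 3 with 1 exposure, replicate 2 with 3 exposures and TMZ replicate 3 with 3 exposures. Treatment and exposure values and some genotype values are also given within these sets, called set 1, 2 and 3 in that order.

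The marked G positions around the gene starts are shown here because they are the stretches for which sequence was at hand. They lie inside the wider start windows counted further on. Each window runs from 250 bases before to 50 bases after an annotated start, 5′ to 3′ along the gene, in RefSeq's sequence of GRCh38.p14. A capital G is a marked G on the gene's own strand and a capital C a marked G on the opposite strand, in any TMZ library of cells or in naked DNA. The windows are chr5:80654402-80654701 for MSH3, chr14:75051418-75051717 for MLH3, chr2:189784200-189784499 for PMS1, chr7:6009000-6009299 for PMS2, chr1:241848481-241848780 for EXO1 and chr2:47783705-47784004 for MSH6. MSH6, PMS2 and EXO1 have several annotated starts, and the window shown for each is the one with the most marked positions, chosen after these were counted.
MSH3: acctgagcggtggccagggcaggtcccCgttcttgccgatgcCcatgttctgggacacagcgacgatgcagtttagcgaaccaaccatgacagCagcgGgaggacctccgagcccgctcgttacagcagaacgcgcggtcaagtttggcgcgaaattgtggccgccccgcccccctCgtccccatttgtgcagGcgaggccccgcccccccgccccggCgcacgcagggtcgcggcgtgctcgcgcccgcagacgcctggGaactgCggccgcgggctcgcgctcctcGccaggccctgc
MSH6: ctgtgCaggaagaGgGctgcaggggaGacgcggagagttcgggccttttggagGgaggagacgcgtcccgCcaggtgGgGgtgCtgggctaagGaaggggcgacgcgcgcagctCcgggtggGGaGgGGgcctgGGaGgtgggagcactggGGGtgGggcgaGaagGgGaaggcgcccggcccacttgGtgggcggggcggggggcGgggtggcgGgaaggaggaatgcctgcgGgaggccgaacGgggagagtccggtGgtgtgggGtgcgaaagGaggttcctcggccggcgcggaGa
MLH3: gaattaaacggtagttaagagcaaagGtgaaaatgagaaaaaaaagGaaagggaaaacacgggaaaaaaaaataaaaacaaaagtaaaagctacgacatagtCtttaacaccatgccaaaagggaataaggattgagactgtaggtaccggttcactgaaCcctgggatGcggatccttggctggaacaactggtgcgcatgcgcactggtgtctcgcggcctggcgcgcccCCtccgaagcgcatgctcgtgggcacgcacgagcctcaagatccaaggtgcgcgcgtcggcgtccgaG
PMS1: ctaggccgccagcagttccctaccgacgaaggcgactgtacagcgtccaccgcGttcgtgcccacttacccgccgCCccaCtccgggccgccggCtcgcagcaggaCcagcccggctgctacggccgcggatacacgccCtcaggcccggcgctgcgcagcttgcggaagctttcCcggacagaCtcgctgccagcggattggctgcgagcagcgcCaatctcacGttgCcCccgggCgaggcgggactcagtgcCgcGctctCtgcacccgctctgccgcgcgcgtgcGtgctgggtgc
PMS2: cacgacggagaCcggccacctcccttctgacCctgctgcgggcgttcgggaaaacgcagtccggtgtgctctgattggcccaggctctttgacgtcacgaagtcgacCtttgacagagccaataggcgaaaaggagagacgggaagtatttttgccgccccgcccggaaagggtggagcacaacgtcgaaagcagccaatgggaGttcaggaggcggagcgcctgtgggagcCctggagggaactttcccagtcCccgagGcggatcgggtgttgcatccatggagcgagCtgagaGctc
EXO1: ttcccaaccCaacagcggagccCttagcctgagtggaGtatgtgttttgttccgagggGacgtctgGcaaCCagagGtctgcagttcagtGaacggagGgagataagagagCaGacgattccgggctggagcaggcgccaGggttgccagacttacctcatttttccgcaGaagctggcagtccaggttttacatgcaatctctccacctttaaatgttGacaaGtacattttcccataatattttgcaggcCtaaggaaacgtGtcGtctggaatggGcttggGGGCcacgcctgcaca

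The MSH6 window held 35 marked G positions, among 220 G on both strands. A purine precedes 31 of these 35 (88.6%), against 139 of all 220 G there (63.2%). The window at the first start of MSH6 held 7. Alkylating agents of TMZ's kind are known to favour a G that follows a purine. The EXO1 window held 24 marked positions of 158 G, 17 of them after a purine (70.8%, against 57.6% of all G there). The window at the first start of EXO1 held 21, with 9 after a purine (42.9%, against 45.9%). In the MSH3 window 10 of 213 G were marked, 4 of them after a purine. PMS1 had 18, PMS2 9 and MLH3 8 marked positions. Over the first window of each of the 6 genes together (for MSH6, PMS2 and EXO1 not the one shown), 41 of 70 marked G followed a purine (58.6%), against 589 of 1187 (49.6%). The positions rarely recurred. In MSH3 95.2% of 3684 distinct G positions were marked in 1 library, and the other genes ranged from 91.7% (MSH6) to 94.5% (PMS1). No position was marked in more than 5 libraries. Of the G positions that TMZ marked in cells, naked DNA was also marked at 3.11% (MLH3) to 6.502% (MSH6), which was 5.28% to 12.7% of the positions in naked DNA. Recurrent positions are few, so the results use numbers of sites.

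TMZ raised the share of G among the marked bases in all 6 genes. In MSH3 G made up 48.8% ± 10.2 of the marks under TMZ in cells (SD, n = 12 libraries), 19.6% ± 6.59 under solvent (n = 12) and 67.3% ± 1.83 in naked DNA (n = 3). Over all nuclear marks the same shares were 51.1% ± 10.8, 22.7% ± 7.06 and 69.0% ± 1.66. Under TMZ the MSH3 share ran from 31.5% to 62.2% with a median of 48.3%, and under solvent from 14.0% to 38.7% with a median of 17.3%. Only the MGMT solvent library of replicate 1 with 1 exposure, at 38.7%, reached the TMZ range. That library shares many positions with TMZ-treated DNA, as given above, and the effect of this on its share of G was not tested. MSH6, the partner of the main mispair sensor, had the highest mean under TMZ, 55.2% ± 13.8, and 25.3% ± 8.72 under solvent. In MLH3 the shares were 52.0% ± 10.1 and 21.5% ± 9.08, in PMS1 48.4% ± 11.1 and 19.2% ± 8.24, and in EXO1 47.9% ± 9.80 and 19.6% ± 4.61. PMS2 had 46.1% ± 12.3 under TMZ and 30.3% ± 19.2 under solvent, where its values ran from 10% to 75% on 1 to 36 marks at other bases per library.

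**Figure D1:**
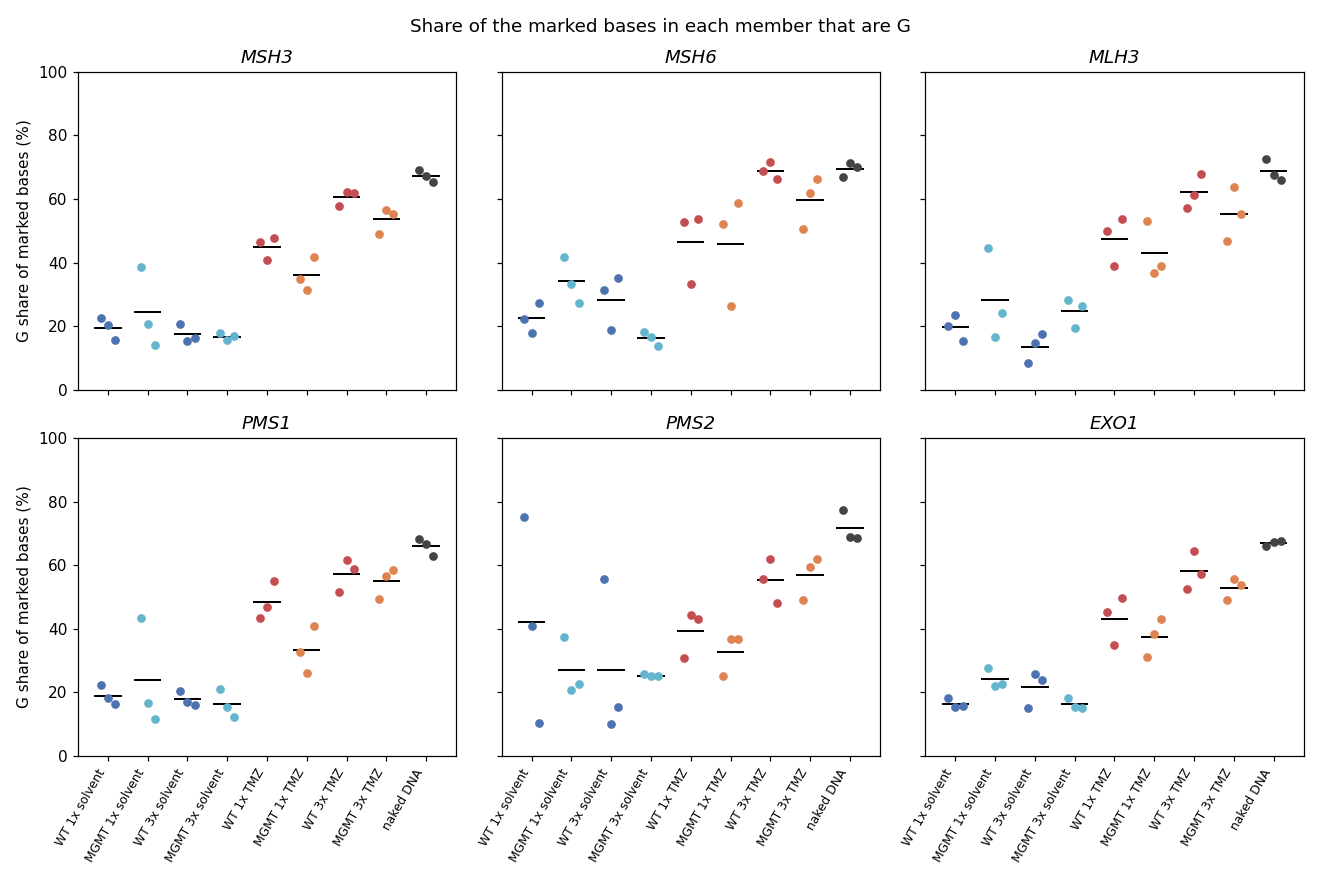
Each panel plots 1 gene, with the share of its marked bases that are G (percent, y axis) for the 3 libraries of each group (x axis); the short line is the group mean. In MSH3 the 3 naked DNA libraries lie between 65.5% and 69.1%, above every TMZ library of cells, and in PMS2 solvent libraries reach 75%.

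The log2 ratio of G sites to sites at other bases was 2.07 higher under TMZ than under solvent in MSH3 (SE 0.134, limma over all genes, adjusted p = 5.79e-13), a 4.19-fold higher ratio. All 6 genes passed the threshold of 0.05, as did 99.7% of the 15586 genes tested, so the count does not set them apart. The ratio was 2.09 higher in PMS1, 1.98 in MLH3, 1.92 in EXO1 and 1.89 in MSH6, around the median of all genes of 1.91. PMS2, the endonuclease subunit, had a rise of 1.28 (SE 0.311, adjusted p = 0.000371), and 2.46% of genes had a rise as low or lower. The rise differed between the sets of libraries that share positions. It ran from 2.12 (EXO1) to 2.67 (PMS1) in set 3, and from 0.68 (PMS2) to 1.80 (EXO1) in set 2. In set 1 it ran from -1.58 (PMS2) to 1.15 (MSH6). Both solvent libraries of set 1 share many positions with TMZ-treated DNA, as does the WT solvent library with 3 exposures in set 2. The effect of this on the rise was not tested. PMS2 had 3 G marks and 1 other mark in the WT solvent library of set 1, and 5 and 4 in that WT library of set 2. Without replicate 1 the rise of PMS2 was 1.73.

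The share was also higher after 3 exposures than after 1. All cells gave their DNA 24 h after the first exposure, so the last of 3 lay nearer to harvest. The number of exposures and the time since the last one cannot be told apart. Under TMZ, WT cells had 45.0% ± 3.69 G in MSH3 after 1 exposure and 60.6% ± 2.53 after 3 (n = 3 each), and MGMT cells had 36.0% ± 5.25 and 53.6% ± 4.14. The 3 libraries of each exposure number did not overlap within either genotype, and how many of all genes separate in this way was not tested. The log2 ratio of G to other bases rose by 0.99 in MSH3 from 1 to 3 exposures (SE 0.136, limma, adjusted p = 2.07e-06). It rose by 1.09 in MSH6, 1.08 in PMS2, 0.88 in EXO1, 0.87 in PMS1 and 0.86 in MLH3, so all 6 passed, against 86.1% of all genes and a median of 0.99. Within set 2 the rise ran from 0.68 (PMS2) to 1.78 (MSH6), and within set 3 from 0.64 (MSH6) to 1.03 (PMS2). Without replicate 2, MSH3 alone stayed past the threshold, and the other 5 rose by 0.46 to 1.01 with adjusted p from 0.0616 to 0.224. Calls over all genes fell as well, from 13419 of 15586 to between 5793 and 12909 with any 1 replicate number left out. With no weights PMS2 lost its call too (adjusted p = 0.0543). The difference of MGMT from WT cells in this ratio under TMZ ran from -0.20 in PMS2 to -0.55 in PMS1 (log2), and 0 of the 6 passed in limma (2 had an unadjusted p under 0.05: MSH3 and PMS1), and 0.0% of all genes did (0 of 15586, with 3884 at an unadjusted p under 0.05, 0 with no weights and 253 on sites marked in 1 library only). The median over all genes was -0.34. This fit had no block for libraries that share positions. Within sets 1 to 3 (no test) the difference was -0.70, -0.54 and -0.35 in MSH3 and -0.63, -0.72 and -0.50 in PMS1. MSH6 and PMS2 were below 0 in each set, while MLH3 had 0.18 in set 1 and EXO1 0.0053 in set 2.

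The second measure was where the G marks fall, given as G sites of a gene per 1e6 G sites of the library (SPM). Each library is scaled to the same total, so it does not carry the overall rise in G marks. Divided by gene length, this gave naked DNA, in SPM per kb, 0.447 ± 0.0636 in EXO1, 0.434 ± 0.0919 in MSH6, 0.358 ± 0.0276 in MLH3, 0.296 ± 0.0251 in PMS1, 0.295 ± 0.0206 in PMS2 and 0.281 ± 0.0422 in MSH3 (SD, n = 3). The median of the genes tested was 0.446. EXO1 and MSH6 sat near it, and MSH3 was higher than 13.4% of genes. The value of PMS2 was divided by its full 38.2 kb, though only 17.6% of its G sites beyond 20 kb had the score. From its start on, the 10 kb windows of PMS2 held 87, 82, 48 and 13 sites in naked DNA, the last window incomplete. Its value per kb is therefore below that of its first 20 kb.

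In MSH3 the level was 74.8 ± 14.1 SPM in WT and 58.3 ± 15.3 in MGMT cells after 1 exposure to solvent, and 65.8 ± 9.27 and 51.8 ± 3.38 after 3. With TMZ it was 73.8 ± 11.7 (WT) and 64.3 ± 5.42 (MGMT) after 1 exposure and 67.9 ± 3.51 and 58.3 ± 4.45 after 3. Naked DNA had 62.5 ± 9.39. The 4 WT groups are the 4 highest in this order, and MGMT cells under solvent with 3 exposures the lowest. In PMS1 the solvent levels were 27.8 ± 3.76 (WT, 1 exposure), 31.0 ± 7.03 (MGMT, 1 exposure), 27.8 ± 2.12 (WT, 3 exposures) and 35.7 ± 12.2 (MGMT, 3 exposures). Its TMZ levels in the same order were 34.4 ± 2.89, 29.5 ± 3.76, 27.9 ± 1.02 and 33.4 ± 0.937, and naked DNA was lowest at 27.6 ± 2.34.

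EXO1 had 13.3 ± 1.55 (WT) and 22.8 ± 8.71 (MGMT) after 1 exposure to solvent, and 22.9 ± 5.60 and 19.1 ± 0.695 after 3. With TMZ it had 17.0 ± 1.32 (WT) and 24.8 ± 6.08 (MGMT) after 1 exposure, and 14.8 ± 1.49 and 20.01 ± 2.65 after 3, beside 18.8 ± 2.67 in naked DNA. Its highest group was MGMT cells after 1 exposure to TMZ and its lowest WT cells after 1 exposure to solvent. MSH6 had solvent levels of 11.6 ± 0.642 (WT, 1 exposure), 15.3 ± 3.37 (MGMT, 1 exposure), 18.1 ± 7.21 (WT, 3 exposures) and 10.2 ± 1.56 (MGMT, 3 exposures). Under TMZ the same groups had 10.4 ± 1.84, 13.5 ± 3.19, 12.7 ± 0.678 and 16.1 ± 2.76, and naked DNA had 11.7 ± 2.48. The highest and the lowest level of MSH6 were both solvent groups, with 3 to 7 G sites per library.

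MLH3, the partner subunit that is best known from meiosis, had 10.0 ± 3.79, 15.4 ± 4.53, 8.46 ± 4.19 and 15.6 ± 2.73 under solvent, in the order WT and MGMT after 1 exposure, then WT and MGMT after 3. Under TMZ it had 13.9 ± 0.594, 16.6 ± 5.78, 13.4 ± 0.941 and 13.4 ± 1.495, and in naked DNA 13.5 ± 1.04. Its lowest levels were both WT solvent groups, with 1 to 11 G sites per library. PMS2 had 14.9 ± 8.52, 9.36 ± 2.02, 10.3 ± 6.83 and 15.1 ± 4.05 under solvent in the same order. Under TMZ it had 7.17 ± 2.57, 9.84 ± 2.17, 8.89 ± 1.53 and 11.1 ± 1.77, and in naked DNA 11.3 ± 0.788. All 4 TMZ groups of PMS2 were below naked DNA in mean. Between neighbours in these orders, the gap was within the larger of both SDs in 47 of 48 cases, and the exception was EXO1 in WT cells under TMZ (1 against 3 exposures).

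**Figure D2:**
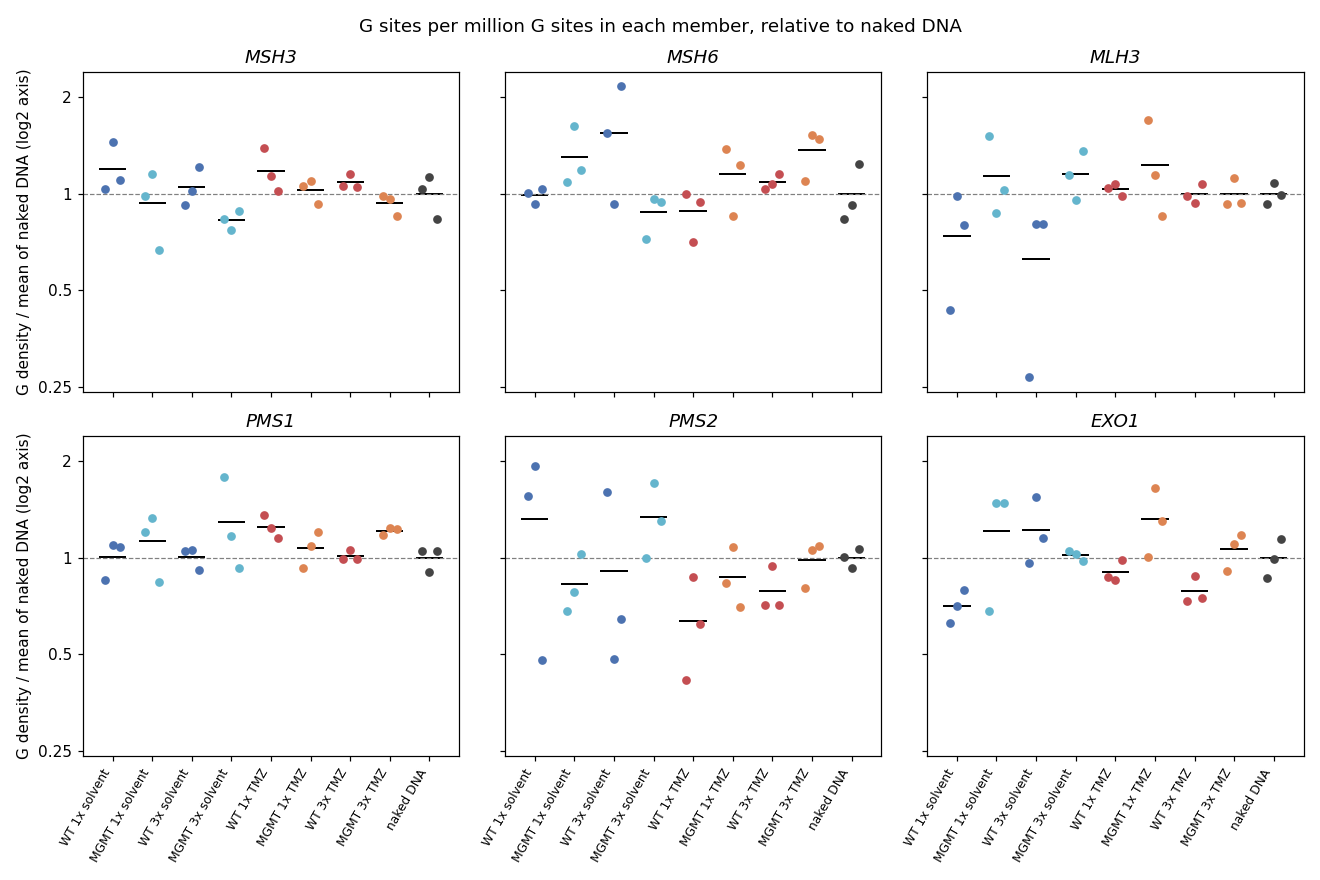
Each panel plots 1 gene, with SPM (G sites of the gene per 1e6 of the library) divided by the mean of naked DNA (y axis, log2 scale) for the 3 libraries of each group (x axis); short lines are group means and the dashed line is naked DNA. TMZ libraries of cells lie around 1 in MSH3, with a mean of 1.06, and in PMS2 their mean is 0.821, with 3 of 12 libraries above 1, while solvent libraries scatter more widely.

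Relative to naked DNA, the TMZ libraries of cells averaged 1.06 ± 0.134 in MSH3, 1.12 ± 0.248 in MSH6, 1.06 ± 0.218 in MLH3, 1.14 ± 0.127 in PMS1, 0.821 ± 0.204 in PMS2 and 1.02 ± 0.261 in EXO1 (ratio, SD, n = 12). Naked DNA was WT in replicates 1 and 2 and MGMT in replicate 3. In that order it had 64.6, 70.6 and 52.2 SPM in MSH3, 9.802, 10.8 and 14.5 in MSH6, and 16.2, 18.6 and 21.5 in EXO1. Replicate 3 was also highest in PMS2, and lay between the others in MLH3 and PMS1. MSH3, MSH6, EXO1 and PMS2 go the way of MGMT against WT under TMZ, given below. This rests on 1 MGMT library, and the part of the line in these ratios was not tested. None of the 6 differed from naked DNA in limma's voom (lowest adjusted p = 0.417, PMS1, also the 1 gene with an unadjusted p under 0.05), where 0.0678% of all genes did. That share is 12 genes, and 0 to 51 passed with any 1 replicate number left out. The interval of the difference bounds its size: in MSH3 it was 0.10 on the log2 scale, with a 95% interval from -0.07 to 0.26. In PMS2 it was -0.25, with an interval from -0.58 to 0.09. Against solvent, TMZ moved the level of 0 of the 6 past the threshold (1 had an unadjusted p under 0.05), while 10.1% of all genes passed. That share is 1791 genes, and 247 to 1588 passed with any 1 replicate number left out. In voom, which scales libraries by the trimmed mean of M values and not by all G sites, the differences were -0.06 in MSH3, -0.19 in MSH6, 0.04 in MLH3, -0.14 in PMS1 and -0.19 in EXO1. On the SPM scale they were 0.072, -0.13, 0.16, 0.0065 and -0.087 in the same order (exact permutation p from 0.325 to 0.944). The direction in MSH3 and PMS1 thus depended on the scaling. PMS2 had the largest difference in voom, -0.46 (SE 0.210, 95% interval -0.88 to -0.04, adjusted p = 0.156). Its level under TMZ ran from 4.69 to 12.3 SPM with a median of 9.24, and under solvent from 5.40 to 21.8 with a median of 11.4, so both ranges overlap. Within the sets the difference of PMS2 was -0.89, -0.60 and -0.14 (sets 1 to 3, no test). MLH3 stayed above 0 in each set, and the other 4 changed sign between sets: in set 1 EXO1 had 0.34, MSH3 0.23 and PMS1 0.067, and in set 3 MSH3 had 0.16, MSH6 0.12 and PMS1 0.12. Taken over the G sites of the 1 Mb on each side, which rose by 0.27 (exact permutation p = 0.000325), PMS2 was 0.69 lower on the log2 scale under TMZ (exact permutation test, two-sided, p = 0.00654). On the SPM scale, without the flanks, the same exact test gave -0.43 for the whole gene (p = 0.0745). On that scale its first 20 kb, a part chosen after the values were seen, had -0.15 (exact permutation p = 0.726). From 1 to 3 exposures under TMZ 0 of the 6 passed (1 had an unadjusted p under 0.05, EXO1 with -0.34), and 0.0% of all genes did (0 of 17702, with 1541 at an unadjusted p under 0.05 and 0 in limma-trend, but 28 with every gene that had a site, 214 with no minimum score, 114 with only the groups compared and 116 without replicate 1). Within sets 2 and 3 (no test) the difference was -0.55 and -0.24 in EXO1, -0.39 and 0.47 in PMS2 and -0.24 and 0.12 in MLH3, and set 1 holds libraries of 1 exposure only. In the exact tests EXO1 fell by 0.26 over its flanks (p = 0.02, unadjusted) and by 0.26 in SPM (p = 0.045, unadjusted).

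EXO1 was the 1 gene with a called difference in level between the genotypes under TMZ. The 6 WT libraries had 16.4, 16.0 and 18.5 SPM after 1 exposure and 13.8, 16.5 and 14.1 after 3. The 6 MGMT libraries had 18.9, 31.0 and 24.5 after 1 exposure and 17.1, 20.8 and 22.2 after 3. Within each exposure number, every MGMT library was higher than every WT library. How many of all genes separate in this way was not tested, so the lack of overlap does not set EXO1 apart. The log2 difference was 0.49 (SE 0.149, 95% interval 0.19 to 0.79, a 1.40-fold higher level, limma's voom, adjusted p = 0.0355), and 6.61% of all genes passed. The size stayed between 0.43 and 0.57 in the alternative fits and the exact test on SPM, but was 0.20, 0.63 and 0.45 within sets 1 to 3 and 0.077 over the flanks. The call ended with no minimum score (adjusted p = 0.0655), in limma-trend (0.456), with every gene that had a site in the fit (0.0544), with the replicate number as a block in a fit without naked DNA (0.0841) and without replicate 2 (0.334) or replicate 3 (0.269). MSH6 was 0.39 higher (adjusted p = 0.213), PMS2 0.37 (0.422), MLH3 0.10 (0.844) and PMS1 0.07 (0.846), and MSH3 was lower with -0.16 (0.437). In the exact test on SPM, unadjusted, MSH3 had -0.20 (p = 0.03) and MSH6 0.35 (p = 0.05), and over the flanks -0.083 (p = 0.42) and 0.068 (p = 0.63). Under solvent 0 of the 6 differed in voom (0 at an unadjusted p under 0.05), where 0.0395% of genes did and depth was lowest. That share rests on the fit: 7 genes passed in it, 509 in limma-trend, 250 with the replicate block without naked DNA and 136 with only the groups compared. In the exact tests, unadjusted, MLH3 was 0.67 higher in SPM (p = 0.015) and 0.78 higher over its flanks (p = 0.01), and MSH3 had -0.36 in SPM (p = 0.02) and -0.17 over its flanks (p = 0.275). The test of whether the genotypes differ more under TMZ than under solvent called none of the 6 (adjusted p = 0.999 for each, 0 at an unadjusted p under 0.05) and 0.00565% of all genes.

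The same difference was then read from marks at bases other than G. EXO1 was 0.43 higher in MGMT cells under TMZ for A, C and T together (SE 0.128, limma's voom, adjusted p = 0.0143, 12.1% of all genes called). Without replicate 2 or replicate 3 this call ended too (adjusted p = 0.138 and 0.187). No other member passed in that comparison with all replicates, and without replicate 1 PMS1 did (0.43, adjusted p = 0.0103). Under solvent MSH3 was lower in MGMT cells at other bases, with -0.34 (adjusted p = 0.00515) and PMS1 higher by 0.38 (adjusted p = 0.0202), 2 of 6 genes against 9.03% of all. Both calls ended without replicate 2 (-0.32 and 0.38, adjusted p = 0.155 and 0.223) and without replicate 3 (-0.29 and 0.39, adjusted p = 0.105 and 0.135), at sizes close to those with all replicates. That of PMS1 also ended without replicate 1 (0.0644), with no minimum score (0.0597) and in limma-trend (0.0559). EXO1 was 0.33 higher there (adjusted p = 0.139). For G under solvent the fit gave EXO1 0.20 (limma, adjusted p = 0.871), with MGMT cells above WT cells in mean after 1 exposure and below them after 3.

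It also extended beyond the genes. In the 1 Mb on each side of EXO1, all marked bases together were 0.40 higher on the log2 scale in MGMT cells (1.32-fold, 24 libraries, exact permutation test within treatment and exposure number, p = 1.25e-05, the smallest that 160000 arrangements can give). Every MGMT library was above every WT library in 4 of 4 combinations of treatment and exposure number. These combinations are not independent, since libraries of the same line share marked positions across them. At other bases MGMT solvent replicate 2 (1 exposure) and MGMT solvent replicate 1 (3 exposures) shared at 8.80 times the rate of the median pair. With WT solvent replicate 1 (3 exposures) the former shared at 1.73 times. The exact p-values do not allow for such sharing. The flanks of MSH6 were 0.28 higher (1.22-fold) and those of PMS1 0.28 higher (1.22-fold), both without overlap in 4 of 4 combinations and with the same p. The flanks of PMS2 were 0.13 higher (without overlap in 1 of 4, exact permutation p = 0.0145). Those of MSH3 were 0.18 lower (0.883-fold, without overlap in 4 of 4, exact permutation p = 1.25e-05), and those of MLH3 0.10 lower (exact permutation p = 0.00414). How often other regions of this size separate in the same way was not tested. The lack of overlap therefore does not show that these flanks stand out from the genome. Relative to its own flanks, EXO1 differed by -0.07 (exact permutation p = 0.373), MSH3 by -0.06 (0.255), PMS1 by -0.05 (0.414), MSH6 by -0.15 (0.124) and PMS2 by 0.12 (0.295). The G level of EXO1 under TMZ, 0.49 higher in the gene, was 0.08 higher relative to the flanks (exact permutation p = 0.495). MLH3 alone departed from its flanks, by 0.25 (1.19-fold, without overlap in 1 of 4, exact permutation p = 0.00215, and 0.13 to 0.32 with any 1 replicate number left out). The gene itself, not taken over its flanks, was 0.15 higher (exact permutation p = 0.0999). That value ran from 0.0076 to 0.23 with any 1 replicate number left out, and was 0.77, 0.089 and -0.083 within sets 1 to 3 (no test). In all, 138 exact tests were run on the genes, and their p-values are not adjusted. What differs between both lines in these regions was not tested.

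**Figure D3:**
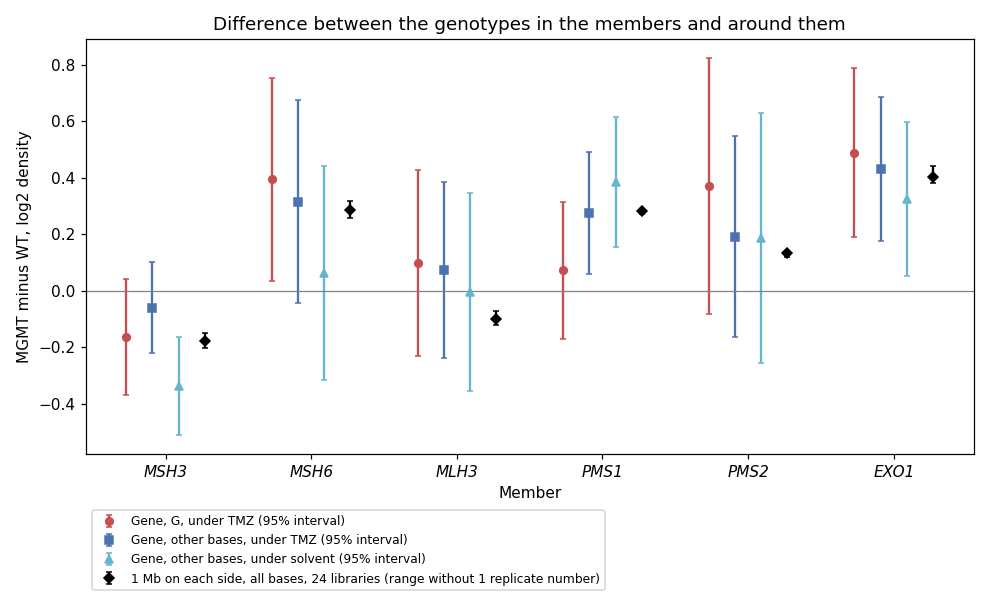
The y axis gives MGMT minus WT in log2 density for each gene (x axis): G marks of the gene under TMZ, other bases under TMZ and under solvent (points with 95% intervals), and all bases in the 1 Mb on each side in 24 libraries (diamonds, bars show the range with 1 replicate number left out). EXO1 lies above 0 in all 4, from 0.33 to 0.49, and MSH3 lies below 0 in all 4. EXO1 at other bases under solvent and MSH3 in both measures under TMZ did not pass the threshold. The 4 values come in part from the same libraries, and G marks under solvent are not plotted.

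Near the gene starts the widest gap between cells and naked DNA was that of MSH3. Within 1 kb on either side of its start, naked DNA had 28 G sites, 1.38 SPM, and the 12 TMZ libraries of cells had 18, or 0.526 SPM. Of the G sites in MSH3 and this window, 2.02%, 2.39% and 2.22% lay near the start in the 3 naked DNA libraries. In TMZ-treated cells the share ran from 0 to 2.67% with a median of 0.580%, and 5 of 12 libraries had no site there. The mean share was 0.734% ± 0.839 against 2.21% ± 0.184, a difference of -1.47 percentage points (exact permutation test over 455 arrangements, two-sided, p = 0.00879, unadjusted, run on all 6 genes after the values were seen). Both ranges overlap at the top. In the other 5 genes the shares did not differ beyond their spread (p from 0.712 for EXO1 to 0.969 for PMS2). Near the start of MSH6 the TMZ libraries had 75 G sites, 2.19 SPM, beside 1.82 in naked DNA, and EXO1 had 1.69 beside 1.77. Per kb, the start of EXO1 held 2.07 times as many G sites under TMZ as the rest of the gene and 2.11 times in naked DNA, and MSH6 2.36 and 2.31 times. In MSH3 these values were 0.900 and 2.46, and 1.46 under solvent on 5 sites near the start. In windows of 10 kb along MSH3 the log2 ratio of TMZ-treated cells to naked DNA ran from -0.36 in the first window to 0.52 in window 12, with 34 to 84 sites per complete window in naked DNA.

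**Figure D4:**
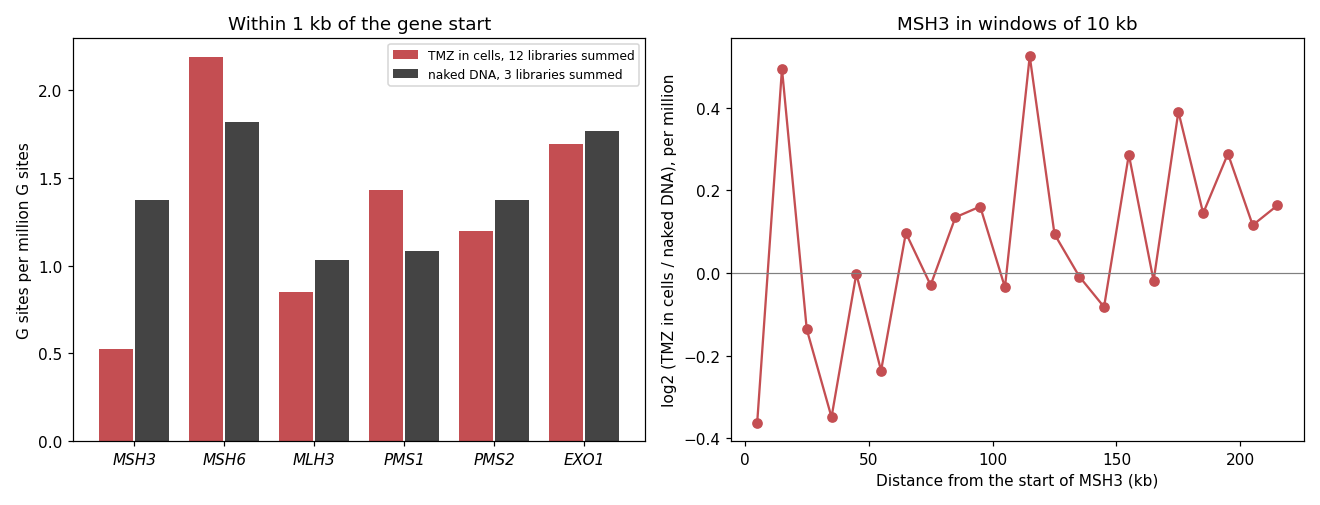
The left panel plots SPM within 1 kb of each gene's start, summed over 12 TMZ libraries of cells and over 3 of naked DNA; the right panel plots the log2 ratio of both in the complete 10 kb windows of MSH3 by distance from its start. MSH3 is the gene with the widest gap on the left, 0.526 beside 1.38.

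PMS2 differed from the other genes in the score of its marks. Only 632 of 1481 G sites in it had a score of 30 or more (42.7%), against 92.3% (EXO1) to 97.5% (PMS1) in the others and 84.1% of all nuclear G sites. The share was 41.2% under TMZ in cells, 51.4% under solvent and 42.5% in naked DNA, so it was low in treated and untreated DNA alike. It depended on position. In the first 20 kb from the start 469 of 555 G sites passed (84.5%), and beyond that 163 of 926 did (17.6%). Between 34 and 36 kb, 0 of 205 G sites passed. The end of PMS2 is known to have a near-identical copy, PMS2CL, on the same chromosome, and reads from such copies cannot be placed uniquely. Its part in these scores was not tested. Levels of PMS2 given here rest mainly on the 20 kb nearest the start.

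**Figure D5:**
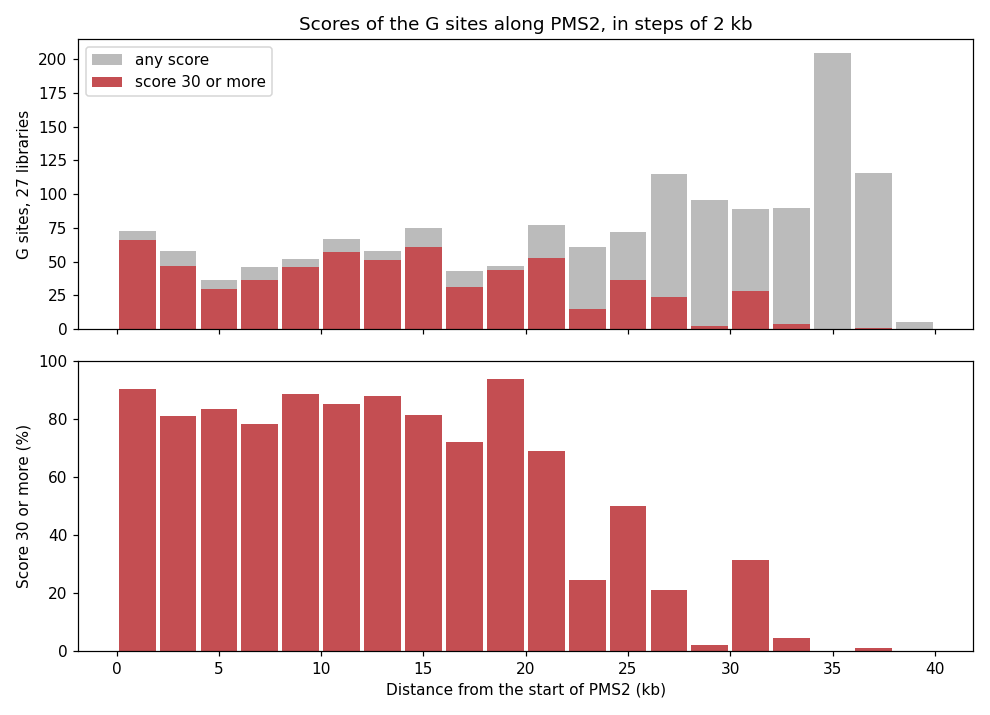
The upper panel plots the G sites of all 27 libraries in steps of 2 kb from the start of PMS2, with any score (grey) and with a score of 30 or more (red); the lower panel plots the share with that score (percent). The share is 90.4% in the first step and 0 between 34 and 36 kb.

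G marks were split between the transcribed strand, read by RNA polymerase, and the coding strand. Summed over libraries, 45.0% of the G sites of MSH3 lay on the transcribed strand under TMZ in cells, 39.8% under solvent and 42.3% in naked DNA. MSH6 had 37.6%, 42.3% and 40.8%, MLH3 49.7%, 43.4% and 42.4%, PMS1 43.9%, 42.2% and 44.6%, and EXO1 42.8%, 44.9% and 44.9%. PMS2 had 37.99% under TMZ, 39.7% under solvent and 48.3% in naked DNA. No member's strand ratio changed with TMZ against solvent (0 of 6 in limma, 0 with an unadjusted p under 0.05, 0.16% of 11251 genes called). None differed between TMZ-treated cells and naked DNA (0 of 6, 0.0% of genes, 796 of them at an unadjusted p under 0.05). The 1 gene with an unadjusted p under 0.05 there was PMS2, whose log2 ratio of transcribed to coding strand was -0.68 in cells relative to naked DNA (SE 0.260, 95% interval -1.19 to -0.17, adjusted p = 0.525), and 0.773% of genes had a ratio as low or lower.

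Other genes of the pathway were read as a list of 19, with the sliding clamp (PCNA), its loader (RFC1 to RFC5), the single-strand binding proteins, polymerase delta, LIG1, HMGB1 and the meiotic MutS genes MSH4 and MSH5. G level was tested in 18 of them. In TMZ against solvent 1 of 18 passed, against 10.1% of all genes: MSH4, which was lower, with -0.43 (SE 0.117, limma's voom, adjusted p = 0.0135). None passed for MGMT against WT under TMZ (3 at an unadjusted p under 0.05), for the number of exposures (1) or against naked DNA (3). The ratio of G to other bases rose with TMZ in 17 of 17 and with 3 exposures in 15 of 17, with medians of 1.89 and 0.97, against 99.7% and 86.1% of all genes with medians of 1.91 and 0.99. At other bases under solvent MSH4 was 0.43 higher in MGMT cells (limma, adjusted p = 0.0014), and no other gene of the list passed, while 9.03% of all genes did.

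By pattern over the 27 libraries, the 2 genes whose log2 G level correlated most with each member, among 10982 genes with at least 20 G sites per library on average, were read off. They were ZNF385D and BFSP1 for MSH3 (Pearson's r = 0.745 and 0.735), EDC3 and PTAFR for MSH6 (0.699 and 0.651), PDILT and CTXND1 for MLH3 (0.802 and 0.778), MYO16 and EIF5B for PMS1 (0.641 and 0.618), DBF4 and GANC for PMS2 (0.712 and 0.689), and APLF and COL4A5 for EXO1 (0.724 and 0.716). These are descriptions over libraries that share depth and, in part, marked positions. Each pair is the top of 10982 correlations, and how high the top would be among unrelated genes was not tested.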

How the data were processed

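Sites marked by O6-MeG-seq were mapped in 27 libraries. The deposited tables have no header, and each lists distinct marked sites with chromosome, position, strand, base and a score of 0 to 42 per site, in GRCh38 coordinates counted from 0. The deposited base matched RefSeq's promoter sequence at 100% of 14494 positions on chromosome 1. What the score measures is not given in the sources used here. The submitters' processing notes name FastQC 0.11.9, Trimmomatic 0.38 and 0.39, cutadapt, Bowtie2 2.3.5.1, GATK 4.2.0.0, SAMtools 1.12 and bedtools 2.29.2, with no role or order.

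G sites that scored at least 30 were summed over each gene body of the RefSeq table. A site counts once per library, however many reads marked it. G density was tested with limma 3.58.1 (voom, library sizes by the trimmed mean of M values) over 9 group means, in R 4.3.3, for genes with 10 sites in 3 libraries. Log2 ratios of G to other bases and of transcribed to coding strand were tested with limma, weighted by site number, for genes with a mean of 5 sites of each kind and a prior of 0.5. P-values were adjusted after Benjamini-Hochberg over all genes at 0.05. The alternative fit used median-of-ratios sizes with limma-trend. Single values were tested by two-sided exact permutation of libraries between the compared groups, within the levels of the other factors (genotype, treatment, exposure number), and with no strata against naked DNA. The fits were tested on simulated data first, for TMZ against solvent only. Density calls were slightly too many there, and the part of library depth in this was not tested. The simulated libraries were drawn independently, so they cannot show the error rate in libraries that share positions. The named genes are the 6 members, the genes of a pathway list that passed and the 2 genes most like each member. Members and lists were chosen with earlier results of these data known. Depth limits precision: 1 to 11 G sites per solvent library in MLH3. Overlap of other genes with MSH3 is not reported here.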

Additional observations from a re-analysis of the deposited data

How the results depend on the processing

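Of 819 member values under another setting, 718 kept direction and side of the threshold, 1 gained a call, 8 had an unadjusted exact p of 0.05 or less where the fit had no call, 22 lost a call, 26 moved without a test and 44 turned direction. The cause was not tested. For G density in TMZ against solvent, MLH3 turned to -0.033 with no minimum score, -0.048 on sites marked in 1 library only and -0.0080 over the flanks, MSH3 to 0.042 over the flanks and 0.072 scaled to all G sites, and PMS1 to 0.059 and 0.0065. Within library set 1 (no test) EXO1 turned to 0.34, MSH3 to 0.23, MSH6 to 0.0029 and PMS1 to 0.067, and within set 3 MSH3 turned to 0.16, MSH6 to 0.12 and PMS1 to 0.12. For MGMT against WT over the flanks, PMS1 turned to -0.22 under TMZ, and under solvent EXO1 to -0.20, PMS1 to -0.14 and PMS2 to -0.051, with -0.055 for PMS2 at no minimum score. Against naked DNA, EXO1 turned to -0.14 over the flanks. The ratio of G to other bases of PMS2 turned to -1.58 within library set 1. Other-base density of MLH3 under solvent turned to 0.11 in limma-trend. For strands in TMZ against solvent, EXO1 turned to 0.10 with no weights, MLH3 to -0.12 on sites marked in 1 library only, and PMS1 to -0.030 with no minimum score and -0.034 with a prior of 2 sites.

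Leaving out 1 replicate number at a time, members that turned ranged as follows. For MGMT against WT in G density, PMS1 ran from -0.043 to 0.14 under TMZ, and under solvent MSH6 from -0.48 to 0.063 and PMS2 from -0.32 to 0.61. MLH3 ran from -0.070 to 0.19 in TMZ against solvent, and for the interaction PMS1 ran from -0.40 to 0.065 and PMS2 from -0.27 to 0.67. At other bases MLH3 ran from -0.090 to 0.25 under TMZ and -0.078 to 0.12 under solvent, and MSH6 from -0.15 to 0.17 under solvent. The ratio of G to other bases of MLH3 ran from -0.57 to 0.015 in MGMT against WT. For strands, TMZ against solvent gave EXO1 -0.28 to 0.074, MLH3 -0.025 to 0.15, PMS1 -0.11 to 0.077 and PMS2 -0.86 to 0.033, and against naked DNA EXO1 had -0.21 to 0.038, MSH6 -0.41 to 0.0041 and PMS1 -0.17 to 0.078. Genes past the threshold ran from 247 to 1588 for TMZ against solvent, 336 to 918 for MGMT against WT under TMZ, 0 to 3 under solvent, 0 to 1 for the interaction, 0 to 116 for exposures and 0 to 51 against naked DNA. The ratio had 5793 to 12909 for exposures, strands 0 to 30 against solvent and 0 to 1 against naked DNA, and other bases 965 to 1551 under TMZ and 511 to 1223 under solvent.

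Counts of genes past the threshold moved as follows. For G density in TMZ against solvent, 3199 passed with every gene that had a site. For MGMT against WT under TMZ, 141 passed in limma-trend and 2047 with only the groups compared. Under solvent, 4 passed with every gene that had a site, 509 in limma-trend, 1 with no minimum score, 136 with only the groups compared and 0 on sites marked in 1 library only. The interaction had 0 in limma-trend. For 3 against 1 exposure, 28 passed with every gene that had a site, 214 with no minimum score, 114 with only the groups compared and 1 on sites marked in 1 library only. Against naked DNA, 0 passed in limma-trend, 40 with no minimum score, 78 with only the groups compared and 0 on sites marked in 1 library only. For the ratio of G to other bases in MGMT against WT, 253 passed on sites marked in 1 library only. For strands, TMZ against solvent had 57 with no minimum score, 39 with only the groups compared and 7 on sites marked in 1 library only, and against naked DNA 9 passed with no minimum score. Other-base density under TMZ had 1194 in limma-trend.

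Same-numbered libraries deviated together with r above 0.1 in 7 of 12 genotype pairs, 6 of 12 treatment pairs and 2 of 6 exposure pairs. Within 1 exposure to TMZ 3 of 3 genotype pairs did. The fits were given no block because not every pair did. The library sets follow the number within an exposure number only in part. Across exposure numbers, replicate 2 with 1 exposure falls in the same set as replicate 1 with 3 exposures. Exposure pairs of replicates 1 and 2 therefore join different sets. A low r in them cannot show that libraries of the same set are independent. The p-values of fits without a block do not allow for the sets. With the number within exposure number as a block and naked DNA left out, EXO1 had 0.51 for MGMT against WT under TMZ (limma, adjusted p = 0.0841), and 250 genes passed under solvent. The share of each change in these values was not tested. With the number alone as a block, 0 genes passed against naked DNA.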
